A study of Mus musculus with 6 samples.

Results

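This comparison set the pancreatic macrophage libraries of days 4, 5 and 7 after caerulein against those of mock mice and days 1 and 3. It used all 6 libraries of the series, 3 a side, and the 10000 of 31617 genes with the highest mean over the 6. A gene was counted as different only where the 3 values of one side all lay above the 3 of the other. The mice were Balb/c and wild type, and their pancreatic cells were sorted as CD45+CD11b+F4/80+. The mice had fasted and then received 10 hourly intraperitoneal injections of saline (mock, called day 0) or of caerulein, an analogue of cholecystokinin that overstimulates acinar cells. Days count from the first injection, and day 4 is given by its sample's labels alone. Every library came from a pool of more than 3 mice, with 1 library per day. The libraries of a side are therefore different days and not replicates, and the early side joins uninjured and injured pancreas.

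Caerulein pancreatitis damages the enzyme-making acinar cells, draws monocytes from the blood into the gland and then resolves as the tissue regrows. Macrophages of the injured pancreas arise from such monocytes and from cells that lived in the gland before. They take up dying cells, release inflammatory mediators early on and later supply growth factors for repair, and glycolysis often accompanies their inflammatory state.

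The libraries held between 14853084 and 25726455 reads, and a floor of 3 reads was worth 2.11 to 3.88 normalised read counts, the unit of all levels below. The sort genes Ptprc (CD45) and Adgre1 (F4/80) overlapped between the sides, with Adgre1 between 9671 and 23702 in the 6 libraries. Itgam, which encodes CD11b, was lower in all 3 late libraries as deposited, and under 2 of 4 other scalings of the libraries. It lay at 1900.4, 2627 and 1409 against 678, 687 and 1097. Such values are given throughout in the order mock, day 1 and day 3 against day 4, day 5 and day 7. RNA of digestive enzymes ran through the libraries unevenly: the summed level of 25 acinar genes was 959966 in mock and 1129113 on day 7, and between 52398 and 194622 on the other days. No acinar gene among the 24 compared separated the sides (median log2 ratio of late over early means 0.06). Of the summed levels of the 14 cell type lists, only that of 11 endothelial genes separated the sides. It lay at 1262, 1839 and 1010 against 329, 476 and 933, while each of the 4 endothelial genes compared overlapped. In pooled RNA, fewer cells of a type and less RNA per cell cannot be told apart.

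In all, 702 genes (7.02%) were higher and 952 genes (9.52%) lower in every late library than in every early one, 1654 together (16.5%), while 8346 overlapped. Lower in every late library were the arginase gene Arg1, Timp1, Vcan and Trem1. So were 10 of 23 glycolysis genes and 11 of 22 genes of the unfolded protein response of the endoplasmic reticulum. Higher in every late library were 5 of 13 MHC class II genes, the inhibitory receptor genes Cd22 and Cd33 and the growth factor genes Pdgfc and Igf1. Most gaps were narrow. The gap is the ratio of the nearest values of the sides, each with a pseudocount of 17.8 added, and its median was 1.10-fold among the higher and 1.11-fold among the lower genes. A gap of at least 1.5-fold was found for 28 higher and 67 lower genes, and one of at least 2-fold for 6 and 23. The split depended on the scaling of the libraries: centring each on its median gene gave 1036 higher and 843 lower, and quantile normalisation gave 1057 and 748. Mock was the nearest early library for 331 of the 702 higher genes (47.2%) and for 618 of the 952 lower genes (64.9%). Among all 10000 genes it was the highest early library for 21.0% and the lowest for 37.8%.

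The limma test of the late against the early mean, which counts the differences between the days of a side as error, called 0 genes higher (0%) and 1 gene lower (0.01%) at an adjusted p of 0.05. At an unadjusted p of 0.05 it held 337 higher and 629 lower genes. On whole reads recovered from the deposited values, edgeR called 0 genes in either direction (0%), with 430 and 630 at an unadjusted p of 0.05. DESeq2 called 47 higher (0.472%) and 95 lower (0.954%) of 9957 genes with an adjusted p. An exact permutation test of 3 libraries against 3, two-sided, cannot go below 0.10.

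The gene past the limma threshold was Arg1 (ENSMUSG00000019987), which encodes arginase 1, the enzyme that turns arginine into ornithine and urea and a marker of alternatively activated macrophages. Its level was 4691 in mock, 3934 on day 1 and 5194 on day 3, and 203, 115 and 278 on days 4, 5 and 7. The early libraries lay close together and far above the late ones, of which day 5 was the lowest. The gap was 13.4-fold with the pseudocount added to both values. Arg1 fell by 4.48 on the log2 scale (SE 0.32, limma adjusted p = 0.013). The call was lost with median-centred libraries (adjusted p = 0.0571), with scaling to library totals (0.11), to totals without acinar, erythroid and mitochondrial genes (0.172), and with edgeR (0.24), but not with DESeq2 on the same reads (2.57e-22), while the difference stayed between -4.06 and -4.74 over the limma alternatives. It was also lost without mock (adjusted p = 0.0792), day 1 (0.066), day 3 (0.063) or day 4 (0.194), each of which leaves 2 libraries on a side. Of the 12 arginine and polyamine genes compared, 3 were lower in all late libraries (25.0%, against 9.52% of all genes), Arg1 itself among them. The others were the ornithine decarboxylase Odc1 (1077, 923 and 773 against 549.9, 621 and 518) and its regulator Azin1 (1339.8, 2598 and 1168 against 1144, 995 and 870.0). The sides of Azin1 nearly touched, with a gap of 1.02-fold that 1 of 4 other scalings kept.

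Other genes with wide gaps below came from the protease, monocyte, pattern receptor and chemokine receptor lists, and Tnfaip6 from none of the lists. Timp1, an inhibitor of matrix metalloproteinases, lay at 213, 418 and 1311 against 51.8, 9.36 and 18.6. Vcan, the proteoglycan versican, which monocytes carry, lay at 305, 1888 and 221 against 23.3, 8.32 and 58.3. Its day 1 value stood far above the other early libraries, and the late values reached down to a few reads. Trem1, a receptor that amplifies inflammatory signals in neutrophils and monocytes, lay at 1714, 1448 and 868 against 247, 73.8 and 289.7. Tnfaip6, whose secreted product binds hyaluronan, lay at 114, 161 and 325 against 34.9, 9.36 and 27.9. Ccr1, a receptor for inflammatory CC chemokines, lay at 6399, 12726 and 6513 against 2686, 1888 and 1948, so that mock and day 3 were alike and day 1 was higher. Chil3, a chitinase-like protein of monocytes and alternatively activated macrophages, lay at 3672, 19799.6 and 6937 against 1593, 177 and 431. None of these 6 genes passed limma (adjusted p between 0.461 and 0.49).

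The other leading lower genes were of other kinds. Nfil3, a basic leucine zipper transcription factor, was even on the early side, at 3661, 3679.6 and 3893 against 1496, 799.7 and 1121. The aspartic protease gene Asprv1 lay at 635, 308 and 201 against 64.7, 35.4 and 71.8. Acta2, the smooth muscle actin of stellate cells and myofibroblasts, lay at 98.4, 114 and 443 against 32.4, 7.28 and 25.3, and was highest on day 3. The summed level of 14 fibroblast and stellate genes was 23736 on day 3, 4641 in mock and 903 on day 1, and 1370, 2929 and 11263 in the late libraries, which overlap the early ones. Its part in the Acta2 difference was not tested.

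The widest gaps above were smaller than those below. Samd4, an RNA-binding repressor of translation, lay at 29.6, 6.15 and 19 against 201, 206 and 102. The voltage-gated proton channel gene Hvcn1 lay at 143, 65.2 and 114 against 424, 317 and 354. Both kept clear of the early side by more than 2-fold, and in both day 1 was the lowest library. Cd22, a sialic acid-binding inhibitory receptor best known from B cells, lay at 272, 245 and 128 against 578, 1577 and 696. The summed level of 12 B cell genes, Cd22 among them, did not follow it, at 7463, 2357 and 938 against 1805, 3072 and 7328, and Ms4a1 (CD20) lay at 1182, 417 and 43 against 45.3, 115 and 774. Cd33, a related inhibitory receptor of myeloid cells, lay at 1376, 254 and 728 against 3311, 3491 and 2644. Pdgfc, a platelet-derived growth factor that acts on fibroblasts, lay at 93.6, 48 and 96.5 against 277, 366 and 215. Cxcr3, the receptor for interferon-induced CXC chemokines, lay at 166, 73.8 and 109 against 401, 323 and 372. In these last 3 genes day 1 was again the lowest library.

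The other 6 leading higher genes had gaps between 1.72-fold and 2.04-fold. They were Gpr155, the potassium channel gene Kcnj10, Zmynd15, the sorting nexin Snx29, the cyclin-dependent kinase inhibitor Cdkn1c and Jade2. Snx29 had the lowest limma p among the higher genes (adjusted p = 0.461), with early values of 381, 432 and 351 and late values of 1073, 965 and 803. Cdkn1c was at 4.92 on day 1, near the floor of 3 reads, while mock and day 3 were at 64.9 and 61.3 and the late libraries at 144, 179.9 and 133. Each of these leading genes, in either direction, kept its call under each of 4 other scalings.

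**Figure D1:**
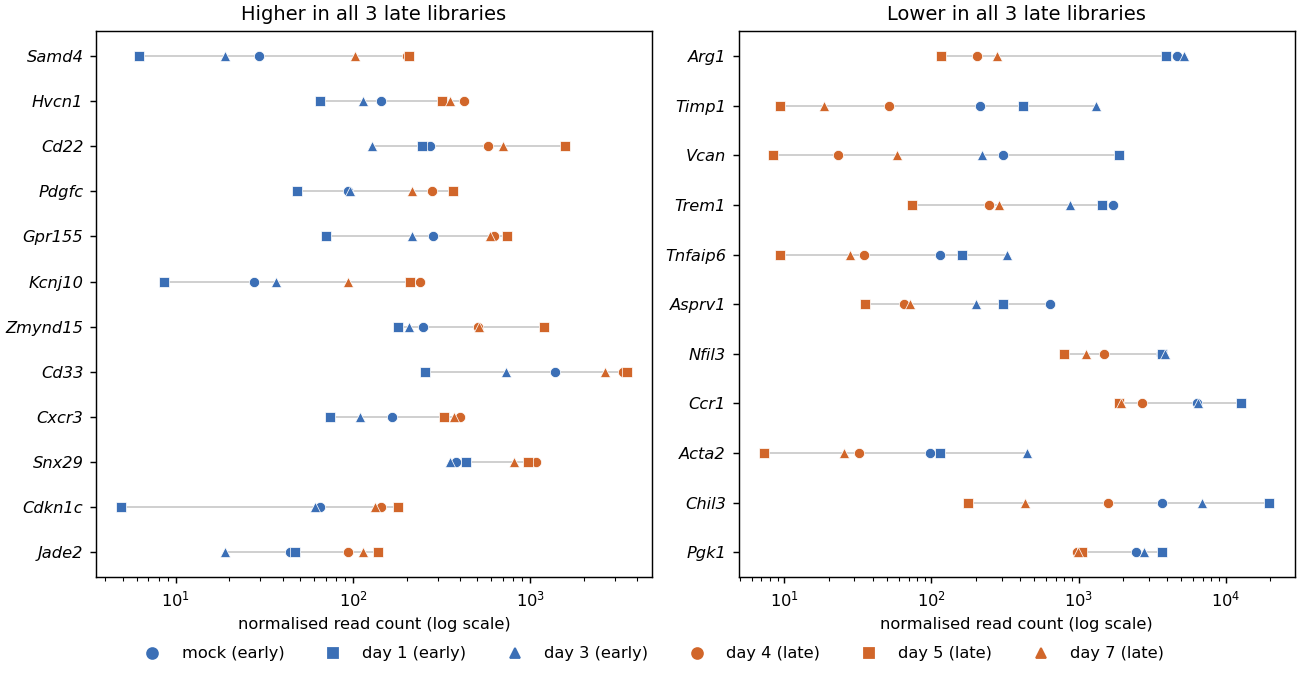
Normalised read counts (log scale) of the leading genes with the widest gaps above (left) and below (right) in each of the 6 libraries, early in blue and late in orange, 1 symbol per library. In every row the colours do not mix, and the Arg1 row has the widest space between them (5194 to 3934 early, 278 to 115 late).

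Genes of glycolysis, the pathway that splits glucose to pyruvate and lactate, had 10 of 23 compared members (43.5%, against 9.52% of all genes) lower in every late library and 0 higher. The other 13 overlapped, and 7 of the 23 had a higher late mean. They ran along the pathway from Gpi1, Pfkl, Aldoa and Tpi1 to Gapdh, Pgk1, Pgam1, Eno1, Pkm and Ldha. The median log2 ratio was -0.58, against -0.06 for all genes compared. Pgk1, phosphoglycerate kinase, lay at 2455, 3703 and 2776 against 976, 1064 and 992, with late values that hardly differed. Gapdh lay at 20035, 26461 and 24425 against 8858, 7829.9 and 6303. Pkm, the pyruvate kinase of macrophages, lay at 21383, 49664 and 23839 against 7409, 8883 and 10427, and was highest on day 1. Ldha, which makes lactate, lay at 16422, 20068 and 16168 against 8329, 8769 and 7323. In each of the 4 the mock library stood with days 1 and 3.

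The overlapping glycolysis genes included the glucose transporters Slc2a1 (806, 756 and 356 against 304, 339 and 498) and Slc2a3, the hexokinases and the regulators Pfkfb3 and Pfkfb4. Pfkfb4 had the highest late over early ratio of the list, at 1374, 1515 and 922 against 1086, 2857 and 1979.8. Slc16a3, the lactate exporter, had the largest difference of side means among the overlapping members and lay at 2164, 1463 and 1053 against 1153, 404 and 659, where day 4 was above day 3. Gapdh and Eno1 have near-identical copies, and the sources used here do not say how shared reads were counted. The Eno1 copy Eno1b, chosen after its values were seen, lay at 5352, 7279 and 4627 against 1960.2, 2041 and 2358. The count of 10 became 8 to 10 under the other scalings and 10 to 13 when 1 library was left out. Leaving out 1 library gave 1189 to 1990 lower of all 10000 genes. DESeq2 called 6 of the 23 lower (Aldoa, Gapdh, Pgk1, Eno1, Pkm, Ldha) and limma 0, with adjusted p of 0.461 for Pgk1 and Gapdh.

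**Figure D2:**
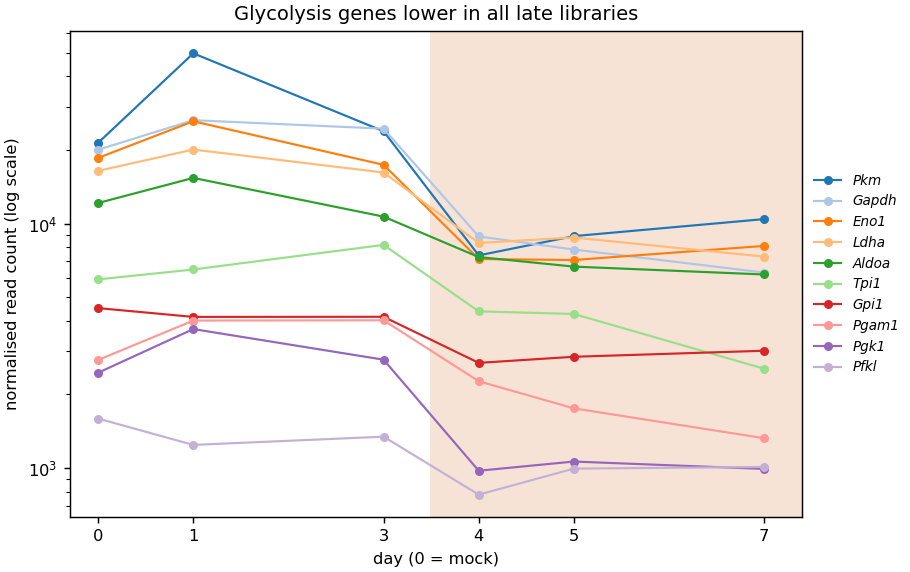
Normalised read counts (log scale) of the 10 glycolysis genes that were lower in all late libraries, by day (0 is mock), 1 line per gene and 1 point per library, with the late days shaded. Each line steps down between day 3 and day 4, Pgk1 from 2776 to 976, and stays under its early values.

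Of 15 genes of the hypoxia response, 5 (33.3%, against 9.52% of all genes) were lower in all late libraries and 1 (6.7%, against 7.02%) higher. Anxa2, an annexin that binds plasminogen at the cell surface, lay at 18733, 33079 and 17017 against 8754, 8036 and 6229.8. Adora2b, an adenosine receptor, lay at 796, 1255 and 749 against 263, 381 and 232. Hif1a, the oxygen-regulated transcription factor subunit itself, lay at 1608, 2530.2 and 1762 against 1159, 1099 and 1268, a narrow gap that 1 of 4 other scalings closed. The oxidase gene Ero1l and Higd1a were the other lower members, and the demethylase gene Kdm3a was the higher one (576, 363 and 479.6 against 710.3, 632 and 802). Without day 1 or without day 4 the lower count was 8, beside 1372 and 1919 of all 10000 genes.

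The list of the unfolded protein response, which holds genes of protein folding in the endoplasmic reticulum (ER) and regulators, had the largest share of lower members. Of 22 genes of the unfolded protein response, 11 (50.0%, against 9.52% of all genes) were lower in all late libraries, 0 were higher and 11 overlapped. The lower members were chaperones and their helpers (Hspa5, Hsp90b1, Dnajc3, Sdf2l1, Manf, Creld2), disulphide isomerases (Pdia3, Pdia4, Pdia6), the calcium-binding lectin chaperone Calr and the disposal factor Edem1. The regulators and the stress branch, Atf4, Atf6, Xbp1, Ddit3, Atf3 and Herpud1, all overlapped. So did other folding and disposal members, the chaperone Hyou1 (641, 1522 and 580.4 against 286, 554 and 760.1), the lectin chaperone Canx, the co-chaperone Dnajb9 and the disposal factor Sel1l. The response adjusts the folding capacity of the ER to its load, and one route runs through the ER stress element, a bipartite promoter sequence read by NF-Y and ATF6.

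The promoters of the list's members, the 250 bases before the RefSeq start (GRCm38.p6), were searched for that element, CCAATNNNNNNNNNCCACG, on both strands, a search chosen after the values were seen. It was present in 33 of 27025 mouse promoters (0.122%) and in 13 of 7658 promoters of the genes compared (0.17%). Of the lower members, 10 had a promoter in the table and 6 held the element. Of the overlapping ones, 9 had a promoter and 1, Canx, held it. The list was made of genes of the response that this element serves. A larger share of matches than among all promoters is therefore no result about the late libraries. A match is a run of letters and no measured binding. The 6 promoters are printed 5′ to 3′ in the direction of the gene, with the element in capitals, in either orientation:
Hspa5 (chr2:34771840-34772089, plus strand): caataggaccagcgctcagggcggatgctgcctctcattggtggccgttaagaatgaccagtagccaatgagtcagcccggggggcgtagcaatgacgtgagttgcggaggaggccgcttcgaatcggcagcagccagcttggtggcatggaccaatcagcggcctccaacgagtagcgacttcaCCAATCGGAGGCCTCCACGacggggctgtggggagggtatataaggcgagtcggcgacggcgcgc
Hsp90b1 (chr10:86705445-86705694, minus strand): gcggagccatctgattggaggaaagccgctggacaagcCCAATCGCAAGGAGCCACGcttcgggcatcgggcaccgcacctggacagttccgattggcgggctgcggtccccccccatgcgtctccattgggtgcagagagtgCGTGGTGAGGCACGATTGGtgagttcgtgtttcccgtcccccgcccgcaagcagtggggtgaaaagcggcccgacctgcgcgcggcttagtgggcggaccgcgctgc
Dnajc3 (chr14:118937682-118937931, plus strand): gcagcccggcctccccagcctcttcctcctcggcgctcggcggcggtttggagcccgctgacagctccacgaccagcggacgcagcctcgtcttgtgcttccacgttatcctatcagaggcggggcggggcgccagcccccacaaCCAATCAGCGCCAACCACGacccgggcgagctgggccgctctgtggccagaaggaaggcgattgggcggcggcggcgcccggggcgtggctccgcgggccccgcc
Creld2 (chr15:88819396-88819645, plus strand): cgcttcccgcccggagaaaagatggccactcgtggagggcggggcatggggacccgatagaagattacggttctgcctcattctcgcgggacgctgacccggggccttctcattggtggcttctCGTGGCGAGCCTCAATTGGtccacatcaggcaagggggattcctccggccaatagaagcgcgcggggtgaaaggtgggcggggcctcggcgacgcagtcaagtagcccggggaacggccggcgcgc
Pdia6 (chr12:17266339-17266588, plus strand): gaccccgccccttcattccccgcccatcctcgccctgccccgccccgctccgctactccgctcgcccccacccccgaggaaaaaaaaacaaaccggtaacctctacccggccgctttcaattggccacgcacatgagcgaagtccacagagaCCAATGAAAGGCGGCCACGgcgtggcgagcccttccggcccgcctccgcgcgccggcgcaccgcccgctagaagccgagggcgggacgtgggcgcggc
Calr (chr8:84846932-84847181, minus strand): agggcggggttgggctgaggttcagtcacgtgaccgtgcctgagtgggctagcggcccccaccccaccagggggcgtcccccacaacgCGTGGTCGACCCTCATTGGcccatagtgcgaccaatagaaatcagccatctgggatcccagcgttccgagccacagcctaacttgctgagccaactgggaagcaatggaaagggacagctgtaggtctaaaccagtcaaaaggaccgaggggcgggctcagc
The element lay between 212 and 47 bases before the start, and Hsp90b1 held 2 of them. A second search chosen after the values were seen, for the hypoxia response core ACGTG in the glycolysis list, found it in 3 of 10 lower and 6 of 12 overlapping members, and in 23.1% of the promoters of the genes compared.

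All 6 genes were highest on day 1 and lowest on day 7. Hspa5, which encodes the main ER chaperone BiP, lay at 40443, 83193 and 37190.2 against 25084, 35271 and 15411, where day 5 came within 1.05-fold of day 3. Pdia6 lay at 14787, 33448 and 19174 against 8048, 8928 and 6005. Calr, calreticulin, lay at 20357, 43282 and 25511 against 10046, 13539 and 7884. Creld2 lay at 1554, 5119 and 1726 against 782, 1084 and 764. These last 3 kept a gap of 1.43-fold or more. Hsp90b1 lay at 7979.9, 11896 and 10584 against 4837, 5043 and 3362, and Dnajc3 had the narrowest range of the 6, at 2371, 3136 and 2088 against 1914, 1833 and 1743. Among members without a printed promoter, Sdf2l1 had the widest gap of the list (5273, 10143 and 6597 against 2431, 2906 and 1704) and Manf, a secreted ER-resident factor, lay at 2616, 7239 and 3323 against 1507, 1617 and 842. The count of 11 was 10 to 12 under the other scalings and 11 to 13 with 1 library left out, beside 1189 to 1990 of all 10000 genes. DESeq2 called 7 of the 22 lower, and limma 0 (adjusted p = 0.485 for Sdf2l1).

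MHC class II genes, which present antigen to CD4 T cells, were the list with the largest share of higher members among the macrophage lists. Of 13 compared, 5 (38.5%, against 7.02% of all genes) were higher in every late library and 0 lower: H2-Aa, H2-Ab1, H2-Oa, the invariant chain Cd74 and the regulator Rfx5. The median log2 ratio was 1.08. H2-Ab1 lay at 15814, 2876 and 5006 against 19948, 17203 and 24781. H2-Aa lay at 7739, 1209.7 and 2285 against 10756, 8325 and 10431, and Cd74 at 124549, 20774 and 28676 against 130869.6, 136059 and 197319. In all 3 genes mock was close under the late libraries, while days 1 and 3 lay several-fold lower. Rfx5 lay at 80.2, 54.1 and 86.6 against 111, 110.2 and 149.5. Ciita, the master regulator of the group, overlapped at 539.6, 80 and 163 against 567, 512 and 1207, because mock was above day 5. Without mock, that is for days 4, 5 and 7 against days 1 and 3, 11 of the 13 were higher. Of all 10000 genes, 1180 were higher in that setting. The count with mock fell to 3 with median-centred libraries and to 1 with libraries scaled to their totals, so it rests on the scaling, and no member passed limma (adjusted p = 0.49 for H2-Ab1 and H2-Aa).

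Dendritic cells also carry MHC class II. Of 9 dendritic cell genes compared, 4 (44.4%, against 7.02% of all genes) were higher in all late libraries, Flt3, Zbtb46, Xcr1 and Siglech, and 0 were lower. Zbtb46, a transcription factor of conventional dendritic cells, lay at 101, 41.8 and 63.4 against 129, 137 and 308. Flt3, the growth factor receptor of their lineage, lay at 108, 60.3 and 173 against 490.4, 189 and 299.8. The summed level of 12 dendritic cell genes overlapped, at 5513, 1325 and 2054 against 6682, 3795 and 8514, with mock above day 5. That of B cell genes (given with Cd22) overlapped as well, and their part in the MHC class II difference was not tested. Without mock, 7 of the 9 dendritic cell genes were higher, as were 1180 of all 10000 genes.

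**Figure D3:**
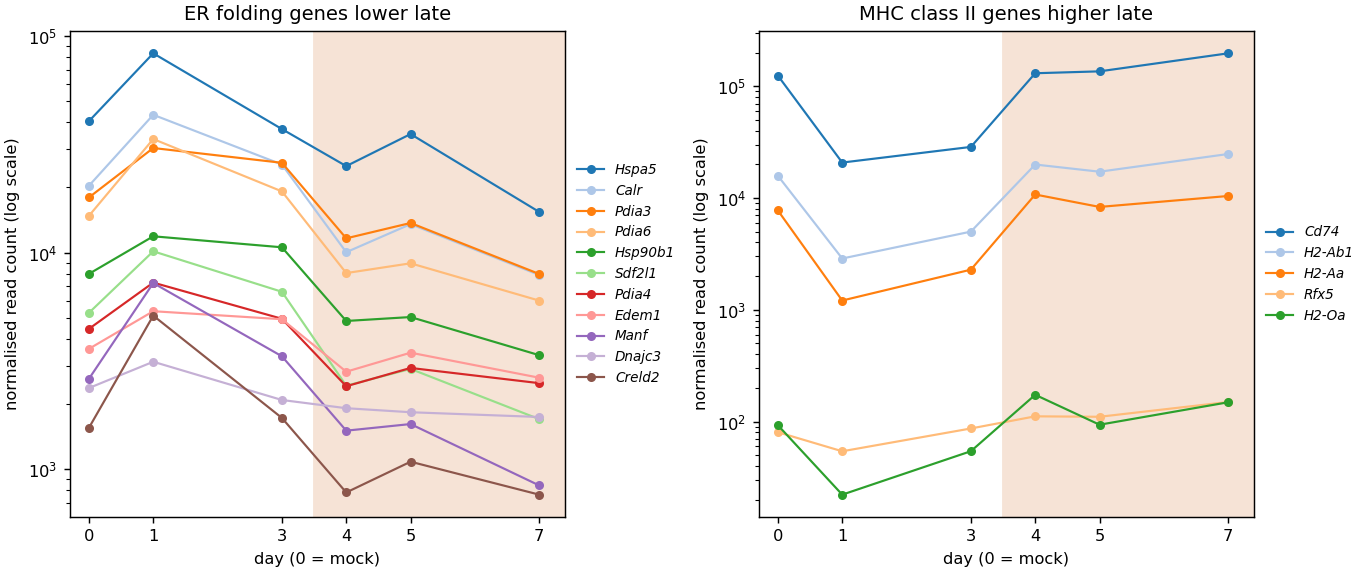
Normalised read counts (log scale) by day (0 is mock) of the 11 ER folding genes lower in all late libraries (left) and the 5 MHC class II genes higher in all late libraries (right), 1 point per library, with the late days shaded. The folding genes peak on day 1, whereas H2-Aa, H2-Ab1, Cd74 and H2-Oa drop from mock to day 1 and stand at or above mock from day 4.

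Of 15 monocyte genes compared, 5 (33.3%, against 9.52% of all genes) were lower in all late libraries and 0 higher. All 15 had a late mean below the early one (median log2 ratio of the 15 genes -2.13), as had 5489 of the 10000 genes. The lower members were Vcan, Chil3, Thbs1, Ccr2 and Cd177. The sides of Cd177 nearly touched, with day 3 at 319 and day 7 at 318, a gap of 1.00-fold. Ccr2, the receptor that brings monocytes out of the marrow and into tissue, lay at 18326, 23258 and 25880.4 against 16742, 13771 and 13159, a gap of 1.09-fold. Thbs1, thrombospondin, lay at 848, 8344 and 1937 against 769, 578 and 644. Ly6c2, the classical monocyte marker, overlapped in spite of the largest difference of means, at 2671, 37117 and 234 against 106, 336 and 782: it was high on day 1 and in mock, while day 3 was already below days 5 and 7. Without day 3 the lower count was 12, beside 1246 of all 10000 genes, and without day 7 it was 9, beside 1189. Quantile normalisation left 3.

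Chemokine genes divided. Ccl9 and Ccl6, CC chemokines that attract myeloid cells, were the 2 of 12 CC members lower in all late libraries (16.7%, against 9.52% of all genes). None was higher, and 6 of the 12 had a higher late mean. Ccl9 lay at 31666, 44471 and 21849.7 against 12377, 11979 and 8843, and Ccl6 at 98892, 114853 and 64131 against 50698, 30482 and 21873. Of 9 CXC members, 1 was higher (11.1%, against 7.02% of all genes) and 2 were lower (22.2%, against 9.52%). Cxcl16, a transmembrane chemokine and scavenger receptor, was the higher one (3327, 2859 and 4509.7 against 7908, 11958 and 5082). Cxcl3, a neutrophil attractant, was lower (1177, 372 and 525 against 295, 32.2 and 19.4), with day 4 near the early side and days 5 and 7 far below. Cxcl14 was lower by a gap of 1.04-fold that no other scaling kept.

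For the CXC chemokine members and the lipid-associated member Apoe that separated the sides, the promoters were searched for 3 motifs on both strands: GGNNTTTCC, of the NF-kB type (in 4.84% of 27025 promoters), TGANTCA, of the AP-1 type (6.87%), and CACGTG, the E-box (6.05%). Cxcl3 held a motif of the NF-kB type 72 to 64 bases before its start and an E-box 155 to 150 bases before it, both in capitals here (GRCm38.p6, chr5:90785851-90786100, plus strand, RefSeq):
Cxcl3: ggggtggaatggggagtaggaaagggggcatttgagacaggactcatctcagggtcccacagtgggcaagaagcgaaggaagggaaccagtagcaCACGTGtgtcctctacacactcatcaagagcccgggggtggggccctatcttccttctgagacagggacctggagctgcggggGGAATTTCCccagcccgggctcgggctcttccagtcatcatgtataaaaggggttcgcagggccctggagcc
Cxcl14 and Apoe held none of the 3, and Cxcl16 had no promoter in the table. The overlapping CXC members Cxcl1, Cxcl2 and Cxcl10 held the NF-kB type motif too.

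Inflammatory mediators had more members lower than higher, as had all genes (952 lower and 702 higher). Of 21 inflammatory cytokine and enzyme genes, 4 (19.0%, against 9.52% of all genes) were lower and 1 (4.8%, against 7.02%) higher in all late libraries. Irg1, which makes itaconate, lay at 2867, 1302 and 739.5 against 445, 153 and 159. The prostaglandin E synthase Ptges lay at 386, 169.8 and 126 against 66, 42.6 and 66.7. Osm, oncostatin M, lay at 5570.4, 9894 and 7531 against 5231, 2629 and 2414. Il10 was the other lower member, by a gap of 1.01-fold. Il12b was the higher one, at low levels (30.6, 30.8 and 48.6 against 53, 173 and 118). Among 23 pattern receptors, Trem1, Clec4e and Msr1 were lower and Tlr7 and Tlr8, endosomal receptors for single-stranded RNA, were higher. Clec4e, the lectin receptor Mincle, lay at 5386, 4859.8 and 3313 against 1756, 501 and 329. Msr1, a scavenger receptor, lay at 7673, 20400.1 and 11913 against 3208, 4028 and 2415. Tlr7 lay at 1039, 1352 and 1038 against 1767, 2616 and 1484. These 2 and 3 of 23 were close to the shares of all genes. Among NF-kB genes 1 of 17 separated the sides, Nfkbib, which was lower (5.9%, against 9.52% of all genes).

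Genes of alternative activation did not share a direction. Arg1, Chil3, Tgfbi and Il10 were lower, of 17 compared (23.5%, against 9.52% of all genes). Clec10a was higher (5.9%, against 7.02%), and 11 of the 17 had a higher late mean. Il10 separated by only 1.01-fold, at 707, 618 and 1364 against 611, 446 and 50.7. Tgfbi, a secreted matrix protein, lay at 8316, 23709 and 12127 against 3395, 5822 and 5926. Clec10a, a galactose-binding lectin, lay at 2448, 774 and 1114 against 3268, 3471 and 3352, with even late values. Proteases and fibrinolysis genes held 5 lower members of 26 (19.2%, against 9.52% of all genes): Timp1, Slpi, F7, Mmp19 and Adam8. Slpi, a leukocyte protease inhibitor, lay at 2047, 1317 and 568 against 285, 46.8 and 394. The membrane protease genes Mmp14 (701, 1109 and 1257 against 1448, 2660.2 and 1371) and Adam17 were higher (7.7%, against 7.02% of all genes). The iron carrier Lcn2, which neutrophils and stressed epithelium also make, lay at 625, 1063 and 279 against 71.2, 11.4 and 148. The summed level of 15 neutrophil genes overlapped, at 18149, 13515 and 12631 against 18446, 5496 and 8391, and its part in the Lcn2 difference was not tested.

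Of 17 growth factor genes, 3 (17.6%, against 7.02% of all genes) were higher in all late libraries, Pdgfc, Pdgfb and Igf1. Nrg1 and Osm were lower (11.8%, near the 9.52% of all genes), and 12 overlapped. Igf1, insulin-like growth factor 1, lay at 647, 206 and 554 against 2596, 922 and 753, with its peak on day 4. Pdgfb lay at 113, 41.8 and 57 against 145, 249 and 156. Nrg1, neuregulin 1, lay at 114, 129 and 147 against 19.4, 2.08 and 44.8, and its day 5 value was under the floor of 3 reads. Of 19 genes for the uptake of apoptotic cells, 3 (15.8%, against 7.02% of all genes) were higher and 0 lower: the receptor Axl and its bridging ligands Gas6 and Pros1. Axl lay at 2229.9, 1951 and 662 against 2309.6, 8464 and 6337, and day 4 was barely above mock. Gas6 lay at 5454, 1548 and 3541 against 6369.8, 6438 and 6096. Pros1 separated by 1.01-fold and under no other scaling.

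Of 15 core macrophage genes, 3 were higher and 1 lower in all late libraries (7.02% and 9.52% of all genes), 11 overlapped and 5 had a lower late mean. Csf1r, the receptor for the growth factor CSF1, was higher (23532, 11449.8 and 23811 against 31779, 44659 and 36504), as were the complement genes C1qb (40484, 17411 and 42480.2 against 62298, 93298 and 46314) and C1qc. Their partner C1qa overlapped (36619, 13942 and 28777 against 39282, 78285 and 34104), with mock above day 7. The complement receptor gene C5ar1 and Itgam were lower. Apoe, the apolipoprotein of lipid-handling macrophages, lay at 222184, 168971 and 561567 against 1508859, 1420534 and 577517: days 4 and 5 were far above, and day 7 only 1.03-fold above day 3. It was the 1 member of 20 lipid-associated genes that separated the sides (5.0% higher, against 7.02% of all genes). Spp1, osteopontin, overlapped at 10118, 142280.2 and 202196 against 31164, 8256 and 4619, since mock was below day 4. Of 18 resident macrophage genes, Gas6 was higher (5.6%, against 7.02% of all genes) and Cbr2 lower (5.6%, against 9.52%). Lyve1 (6005, 729.8 and 675 against 122, 621 and 1779) and Timd4 overlapped. Among 33 myeloid transcription factors, Runx1, Rxra and Bhlhe41 were higher (9.1%, against 7.02% of all genes). Cebpb and Hif1a were lower (6.1%, against 9.52%), so both shares were close to those of all genes. Runx1 and Rxra kept their calls under 2 of 4 other scalings, and Cebpb under 3. Cebpb lay at 21183, 25139 and 16053 against 14704, 10458 and 10864.

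Genes of immediate early and stress responses, which tissue handling can also move, were close to the shares of all genes. Of 24 compared, 3 were higher (12.5%, against 7.02% of all genes), Jun, Jund and Ier2. Hsp90aa1 and Fosl1 were lower (8.3%, against 9.52%), and 12 of the 24 had a higher late mean. Jund lay at 8638, 5385 and 4538 against 12208, 16196 and 10203. Of 22 genes of cholesterol and fatty acid synthesis, 5 (22.7%, against 9.52% of all genes) were lower and 0 higher. Stard4, a sterol carrier, lay at 241, 273 and 239 against 68.6, 171 and 142. A lower late mean was found for 21 of the 22, and for 5489 of all 10000 genes. Scaling to library totals left 2 of the 5.

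Several lists had few separated members although most members had a lower late mean, as had 5489 of all 10000 genes. All 33 cell cycle genes had a lower late mean (median log2 ratio -1.89). Only Pcna and Tyms were lower in all late libraries (6.1%, against 9.52% of all genes). Birc5, survivin, lay at 852, 61.5 and 3281 against 146, 78 and 237, with day 3 highest and day 1 lowest. Without day 1, 32 of the 33 were lower, as were 1372 of all 10000 genes. Interferon-induced genes gave 0 of 30 in either direction: Irf7 lay at 11969.8, 78765 and 2159 against 1723, 41923 and 10833, with day 1 high on the early and day 5 high on the late side. Ribosomal protein genes gave 3 of 74 lower (4.1%, against 9.52% of all genes) and 0 higher, although 71 had a lower late mean. Without day 4 the lower count was 65, beside 1919 of all 10000 genes. None of 10 mitochondrial genome genes separated the sides.

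**Figure D4:**
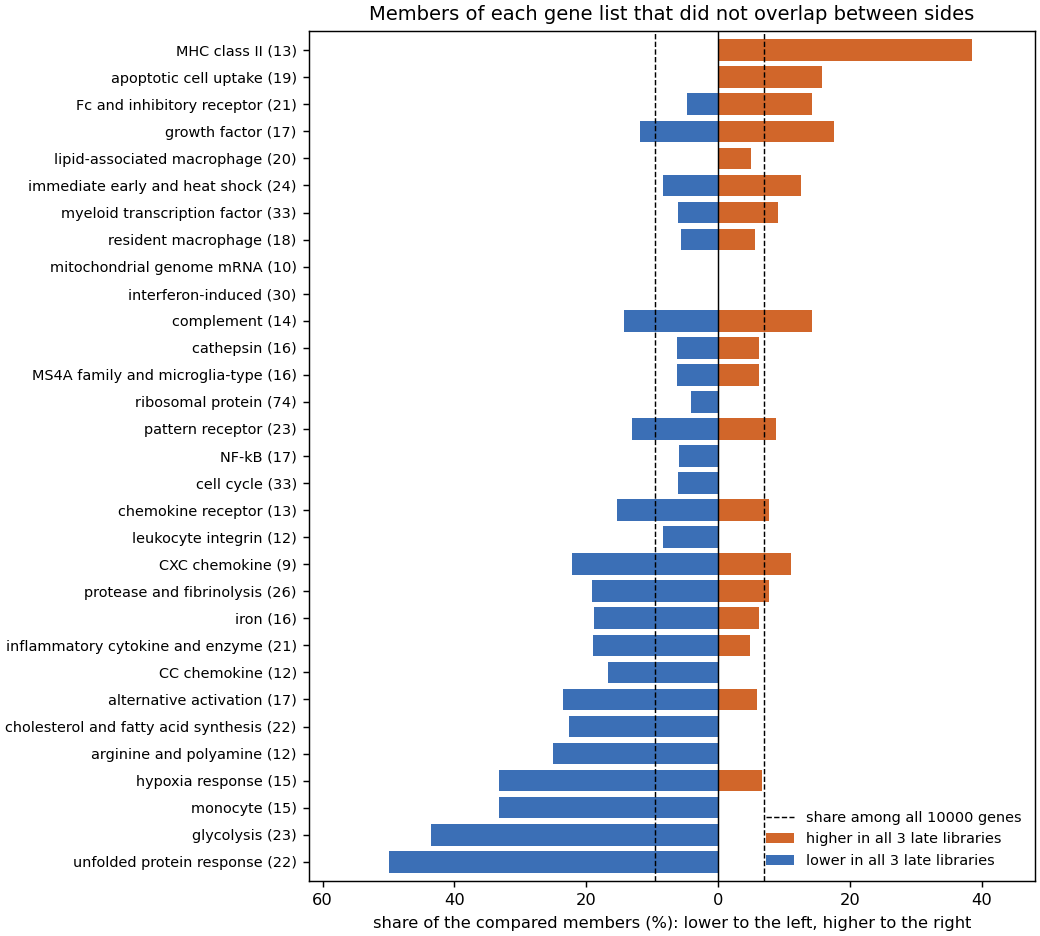
Share of the compared members of 31 gene lists (number compared in brackets) that were lower in all 3 late libraries (blue, to the left) or higher in all 3 (orange, to the right), with dashed lines at the shares of all 10000 genes (9.52% lower, 7.02% higher). Unfolded protein response (50.0%) and glycolysis (43.5%) reach farthest to the left and MHC class II (38.5%) farthest to the right.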

How the data were processed

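RNA was sequenced from 6 pools of sorted pancreatic macrophages, grouped by their sample titles. Per the labels' protocols, libraries were made with an Illumina RNA kit. The table deposited by the authors gives each gene a normalised signal. It is a read count divided by 1 factor per library, as the values themselves show: 100% came out as whole reads within 0.01 reads. Bowtie 0.12.2 and the build mm8 are named, without a role, in the submitters' processing notes. The sources used here give neither the gene counter and its strand setting nor the annotation, and no coordinates were taken from the table. A mouse gene name table held 31431 of the identifiers (99.4%).

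The lowest mean among the 10000 genes compared was 74.1. Log2 values used a pseudocount of 17.8, the mean column total divided by 1000000, which understates the differences of low genes. Late and early means were tested with limma 3.58.1 (eBayes with trend) and Benjamini-Hochberg adjustment over the 10000 genes. As alternatives, edgeR 4.0.16 (quasi-likelihood) and DESeq2 1.42.0 were run on the recovered reads in R 4.3.3. These steps were tested on simulated data. Tables, promoter searches and figures used Python 3.11.15, pandas 2.3.3 and matplotlib 3.10.9. These models take the libraries of a side as replicates although they are of different days and of pooled mice. Intervals were not computed for single libraries, and a floor of 3 reads covers counting error only.

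Lists of genes (31, with 14 lists of cell type markers) were described by counts and medians, without a test. The named genes are the 12 with the widest gap in each direction (leaving out antigen receptor segments, pseudogenes, predicted genes and small RNAs), up to 4 separated members of each list with the widest gaps, the overlapping member of each list with the largest ratio, the sort genes and the lowest p in each direction. A gene that the rule names is not reported here. Other list members were named after their values were seen. The comparison, the lists and the rule were chosen with earlier results of these data known. Other scalings, filters, pseudocounts, a minimum gap and leaving out each library were tried.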

Additional observations from a re-analysis of the deposited data

How the results depend on the processing

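The counts of genes that separated the sides moved with the settings. The higher count was 1057 with quantile normalisation, 1036 with median-centred libraries, 782 with libraries scaled to totals and 683 with totals without acinar, erythroid and mitochondrial genes, where the lower counts were 748, 843, 1064 and 1087. Of the 702 higher genes, 639, 659, 487 and 406 remained, and of the 952 lower genes 654, 739, 690 and 618. Among the 6000 highest genes 339 were higher and 718 lower, and among all 31617 genes 1674 and 1686. A gap of at least 1.5-fold left 28 and 67. Leaving out 1 library, which can only add genes, gave 831 to 1757 higher and 1189 to 1990 lower: without mock 1180 and 1990, without day 1 1170 and 1372, without day 3 1026 and 1246, without day 4 1757 and 1919, without day 5 831 and 1532, and without day 7 1260 and 1189.

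The limma count of 1 lower gene was 0 with median-centred libraries, with scaling to library totals, with totals without acinar, erythroid and mitochondrial genes and with edgeR, 0 to 1 with 1 library left out, and 95 with DESeq2, which also called 47 higher. The lowest adjusted p in limma ranged from 0.00117 to 0.194. The MHC class II count of 5 was 3 with median-centred libraries, 1 with scaling to library totals, 1 with totals without acinar, erythroid and mitochondrial genes, 3 among the 6000 highest genes, and 5 to 11 with 1 library left out. The cause of these shifts was not tested. Of the 104 named genes that separated the sides, none reversed its direction under the settings run, and 79 separated them under all 4 other scalings. Among named genes that overlapped, the sign of the ratio turned with 1 library left out in 8: Cd300lf, Fcgr1 and Kdr without day 1, Col1a1 without day 3, Ms4a1 without mock, Lck without day 7, Ptprc without day 3, day 5 or day 7, and Adgre1 without day 5. The median late minus early difference of all genes was -0.06 as deposited and 0.01 to 0.04 under the other scalings. Depth limits mainly the lowest values, where 3 reads are worth 2.11 to 3.88, and at 1 library per day variation between pools of mice is not measured. No paired analysis was possible because each group has 1 library and the groups therefore share a single replicate number.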
